A study of Mus musculus with 2931 samples.

Results

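Endothelial cells (EC), which line the vessels of the distal mouse lung, were compared shortly before birth and 1 day after it. The members were chosen by the authors' subtype labels and by age: cells labelled nonproliferative embryonic EC at the embryonic stage E18.5, and cells labelled Early or Late Car4- capillaries at postnatal day 1 (P1). The members were 605 of the 2931 single cells in the series, 302 at E18.5 and 303 at P1. The E18.5 cells came from 1 female mouse (134 cells) and 1 male mouse (168 cells). The P1 cells came from 1 female mouse (181 cells, of which 160 were labelled Early and 21 Late) and 1 male mouse (122 cells, 120 Early and 2 Late). All 4 mice are labelled as normal, without the hyperoxia treatment given to another group. The Car4- capillaries of 6 further mice entered the fit for its estimate of spread, a female and a male each of P7 and P21 in normal air and of P7 after hyperoxia. No strain is given in the labels, nor is it stated if several animals were pooled under 1 mouse name, so p-values measure the spread between these mouse names.

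Each cell was sorted into a plate well and its RNA made into a library with the Tn5 transposase, and no molecular identifiers are named. Reads were summed per mouse over its member cells and scaled to CPM, the count per 1000000 reads of that sum. The sums held 95832667 and 136948689 reads at E18.5, and 82289335 and 99176628 at P1. Thinned to 50000 reads, the cells had a median of 2548.5 and 2149.5 detected genes at E18.5, and 3055 and 2230.5 at P1. The names of the member cells carry the code DC23 in both females, DC30 in the E18.5 male and DC35 in the P1 male. The names do not say what this code stands for. Every member cell but 1 of the P1 female carried the CD31 sort gate. The sex genes Xist, Ddx3y, Eif2s3y, Kdm5d and Uty matched the sex labels of all 4 mice. Age and subtype label change together in this comparison, so a change with age and a change of label cannot be told apart. The E18.5 female also had 13 cells with a Car4- label, with a median of 890 genes after thinning, the P1 mice had 2 and 3 cells with the embryonic label, and none of the 296 and 292 CD31-gate cells of E18.5 was labelled as a Car4+ capillary.

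Birth moves the lung from a fluid-filled organ at low oxygen to an air-filled organ that receives the whole output of the right heart. Endothelial cells sense oxygen through the hypoxia-inducible factors (HIF), which prolyl hydroxylases mark for breakdown when oxygen is present. Pulmonary resistance drops through nitric oxide, prostaglandins, natriuretic peptides and the cyclic nucleotides they raise. Bone morphogenetic protein (BMP) signalling through Bmpr2, Acvrl1 and endoglin keeps the pulmonary endothelium quiescent. After birth the lung capillary bed holds Car4+ capillary cells, which lie thinly over the air spaces, and Car4- or general capillary cells, which are marked by genes such as Gpihbp1, Hpgd and Sema3c.

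The members were endothelial by their markers in all 4 mice. The 8 pan-endothelial markers, among them Pecam1, Cdh5 and Cldn5, summed to 13157 and 15427 CPM at E18.5 and to 15883 and 18207 CPM at P1. The 9 general capillary markers summed to 5632 and 6878 CPM at E18.5 and to 10300 and 9304 CPM at P1. Both P1 mice lay above both E18.5 mice for 6 of them and below for 1 (16% and 18.6% of all genes). Gpihbp1 was read at 1400 and 2224 CPM at E18.5 and at 2098 and 3278 CPM at P1. Hpgd (25.4 and 17.5 CPM) and Sema3c (14.3 and 3.71 CPM) were low at E18.5, and these 2 were called higher at P1. The 9 mesenchymal markers summed to between 8.82 and 28.5 CPM. The 10 leukocyte markers summed to 17.9 and 7.19 CPM at E18.5 and to 18.4 and 39.4 CPM at P1, with Ptprc, which defines leukocytes, at 0.158 CPM or less in every mouse. Of the 6 leukocyte markers tested, 5 had a positive log2 change (51.0% of all genes did; median 1.47), with none called by edgeR, DESeq2 or limma. The 9 epithelial markers summed to 188 and 69.4 CPM at E18.5 and to 66.9 and 66.1 CPM at P1. Of these sums Sftpc gave 188 and 60.0 CPM before birth and 31.4 and 51.6 CPM after it, while Epcam stayed at 0.0365 CPM or less. Apart from Sftpc the epithelial list lay the other way: 6 of its 7 tested members had a positive log2 change (median 2.74), beside 51.0% of all genes. Of these, 3 had an unadjusted p under 0.05 by edgeR, which 9.42% of all genes had in either direction. DESeq2 called 2 higher at P1 where edgeR called none. Cldn18, a tight junction gene of lung epithelium, had 0.292 and 3.48 CPM in the embryonic EC and 15.7 and 9.18 CPM in the P1 cells. The 8 erythroid and platelet markers summed to 20.9 and 70.1 CPM at E18.5 and to 36.2 and 116 CPM at P1. The 8 arterial markers summed to 750 and 736 CPM before birth and to 1322 and 990 CPM after it; both P1 mice lay above both E18.5 mice for 5 of the 7 tested (16% of all genes; median log2 change 1.25), and Fbln2 was called. The 7 venous markers summed to 58.8 and 82.8 CPM before birth and to 129 and 117 CPM after it, with 4 of the 6 tested above, a median of 1.08 and none called by edgeR, DESeq2 or limma. The 7 lymphatic markers lay between 211 and 409 CPM, most of which was Flt4. The part of these other cell types in the results was not tested.

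edgeR's quasi-likelihood test called 74 of 14967 genes at a Benjamini-Hochberg adjusted p under 0.05, which is 0.494% of the genes tested. Of these, 65 were higher at P1 (0.434%) and 9 were lower (0.0601%). An unadjusted p under 0.05 was reached by 1410 genes, and the median log2 change over all genes tested was 0.02. The groups did not overlap for any of the 74; over all genes tested both P1 mice lay above both E18.5 mice for 16% and below them for 18.6%. The 2 females, whose cell names share 1 code, differed in the called direction for each of the 74. This follows from the lack of overlap in the same data and is no separate check of the code. The count moved with single mice: 28 genes were called without the E18.5 male (20 of them among the 74), 36 without the E18.5 female (22 among the 74), 45 without the P7 female (44) and 44 without the P7 male (43). The 4 mice fitted alone gave 9 calls, and DESeq2 gave 572, which include all 74. In 19 of the 74 genes, 17 higher and 2 lower at P1, over 50% of the reads of the higher group came from 5 cells. Called genes are described singly where their higher group had a mean of 20 CPM or more and 25% or more of its cells held a read before thinning, or where they belong to a gene list.

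The 2 genes of the hypoxia list that were called lower are shown with the sequence before their start sites. Each holds ACGTG, the core letters of the hypoxia response element, there. So does Hilpda of the same list, 43 bases before a start site, which was not called and lay higher in both P1 mice. A part of HIF in these changes was not tested. The windows below are the 250 bases before the RefSeq start site on GRCm38.p6, written 5′ to 3′ on the gene's own strand, with ACGTG in capitals. Egln3 lies on the minus strand of chromosome 12 (gene body 54178981 to 54203860 in GENCODE M21) and its window is chr12:54203875-54204124. Ankrd37 is on the minus strand of chromosome 8 (45996902 to 46005707) and its window is chr8:45999851-46000100. The 3′ end of that window overlaps the first exon of Ankrd37 in GENCODE M21, and the rest lies in an intron of a longer Ankrd37 transcript and of Lrp2bp, which runs on the other strand.
Egln3: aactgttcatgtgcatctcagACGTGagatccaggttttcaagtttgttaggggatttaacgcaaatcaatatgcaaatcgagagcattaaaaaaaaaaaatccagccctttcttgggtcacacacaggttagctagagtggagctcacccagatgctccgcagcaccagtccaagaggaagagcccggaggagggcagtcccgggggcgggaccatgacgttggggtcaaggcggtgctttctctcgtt
Ankrd37: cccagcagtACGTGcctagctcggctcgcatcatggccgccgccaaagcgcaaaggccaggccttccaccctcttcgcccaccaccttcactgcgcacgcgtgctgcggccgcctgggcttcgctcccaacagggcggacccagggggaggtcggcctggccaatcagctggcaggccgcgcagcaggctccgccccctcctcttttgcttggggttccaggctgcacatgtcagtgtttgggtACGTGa
The match in Egln3 begins 229 bases before the start site, and those in Ankrd37 begin 241 and 6 bases before it. Counting 300 bases per window (50 after the start site included) and both strands, ACGTG was found for 13 of the 19 hypoxia-response genes with a window and for 21.8% of all genes with one. Among the called genes, 13 of the 51 with a window held it. Such a match is a description of letters and does not show that a factor binds there.

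Egln3 encodes a HIF prolyl hydroxylase that is itself induced by low oxygen. It was read at 132 CPM in the female and 72.5 CPM in the male at E18.5, and at 0.0486 and 0 CPM at P1. Both E18.5 mice were far above both P1 mice, where 4 reads were found in all against 22531 reads at E18.5. The log2 change was -12.01 (SE 1.40, edgeR adjusted p 0.00111). Taking all cells of a mouse whatever their label, it was -3.77 (edgeR adjusted p 0.49), the 1 of 22 alternatives in which Egln3 was not called. At 50000 reads per cell Egln3 had a read in 43.2% and 17.9% of the E18.5 cells and in none of 302 P1 cells, while before thinning 3 of the 303 P1 cells held one. Over single cells of the E18.5 female the median was 0.841 CPM and the highest value 2128 CPM, so the reads came from a minority of embryonic cells at high level.

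Ankrd37, which encodes an ankyrin repeat protein and is a known HIF target, was read at 652 and 397 CPM at E18.5 and at 15.6 and 71.0 CPM at P1. The groups did not overlap, and the P1 male was the higher of the P1 mice. Its log2 change was -3.40 (SE 0.69, edgeR adjusted p 0.0431), a call that ended in 10 of 22 alternatives. The adjusted p was 0.165 without the E18.5 female, 0.089 without the E18.5 male, 0.122 without the P1 female, 0.0877 without the P7 female and 0.0843 without the P7 male. Ankrd37 had a read in 79.5% and 58.3% of E18.5 cells and in 10.6% and 11.48% of P1 cells. Of the 57 E18.5 female cells with a read of Egln3, 45 also had one of Ankrd37, against 105 of all 132 cells. In the E18.5 male these were 24 of 30 cells, against 98 of 168.

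Epas1, which encodes the HIF subunit HIF-2 alpha that is abundant in lung endothelium, went the other way. The gene lies at chr17:86753700-86833410 (GENCODE M21, GRCm38). It was read at 256 and 169 CPM at E18.5 and at 1815 and 1273 CPM at P1, with no overlap. The log2 change was 2.94 (SE 0.41, edgeR adjusted p 0.00347), and without the E18.5 male the adjusted p was 0.0595. Nearly every P1 cell had a read (96.1% and 98.4%), against 75.0% and 43.5% at E18.5.

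The other members of the hypoxia list did not pass the test. Of 22 listed genes, 1 rose and 2 fell (0.434% and 0.0601% of all genes did). Both P1 mice lay below both E18.5 mice for 11 and above them for 3 (18.6% and 16% of all genes). The list's median log2 change was -0.74 beside 0.02 for all genes. Hif3a, a HIF family member that can act as an inhibitor, was read at 64.8 and 60.1 CPM at E18.5 and at 0.0122 and 3.66 CPM at P1 (edgeR adjusted p 0.35). Pdk1, which limits entry of pyruvate into mitochondria, had 45.9 and 22.7 CPM at E18.5 and 5.74 and 2.19 CPM at P1 (edgeR adjusted p 0.35). Hilpda, a lipid droplet protein, had 355 and 198 CPM at E18.5 and 405 and 750 CPM at P1 (edgeR adjusted p 0.42). Hif1a, the oxygen-regulated subunit of HIF-1, had 65.02 and 27.4 CPM at E18.5 and 51.2 and 16.3 CPM at P1, so its groups overlapped. For Ndrg1, a stress-responsive gene, the values were 71.9 and 38.6 CPM at E18.5 and 21.4 and 16.5 CPM at P1 (edgeR adjusted p 0.55). Higd1a, a mitochondrial protein, had 82.1 and 67.4 against 55.6 and 91.9 CPM. Hif3a and Pdk1 were picked here after their values had been seen.

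**Figure D1:**
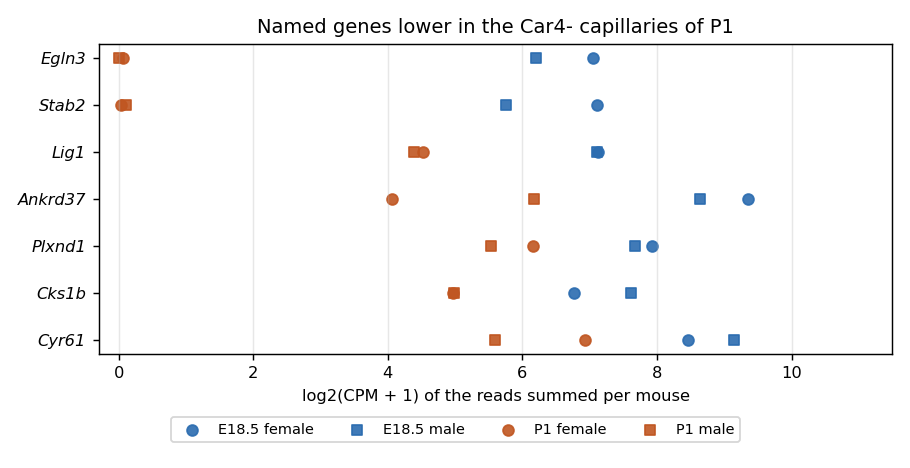
Levels of the 7 named genes that were lower at P1, as log2(CPM + 1) of the reads summed per mouse; blue is E18.5, orange P1, circles females and squares males. For each gene both orange points lie left of both blue points, and Egln3 and Stab2 are close to 0 at P1.

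None of 16 glycolysis genes passed the test by edgeR, while DESeq2 called 2, both lower, and limma 0. By edgeR 5 of the 16 had an unadjusted p under 0.05, all with lower levels at P1, beside 9.42% of all genes. In 12 of the 16 both P1 mice lay below both E18.5 mice, which held for 18.6% of all genes, and in none above. The list's median log2 change was -1.07, and 2 of the 16 had a positive change, beside 51.0% of all genes. Aldoa, an aldolase, was read at 791 and 1290 CPM at E18.5 and at 295 and 468 CPM at P1 (log2 change -1.33, SE 0.42, edgeR adjusted p 0.34). Pkm, a pyruvate kinase, had 616 and 597 CPM at E18.5 and 252 and 129 CPM at P1 (-1.63, SE 0.39, edgeR adjusted p 0.11). Ldha, which turns pyruvate into lactate, had 744 and 1352 against 446 and 405 CPM (edgeR adjusted p 0.35). Gpi1 had 189 and 364 against 190 and 129 CPM, which overlap. Many of these genes have pseudogene copies that share reads, so their levels are uncertain.

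Among the genes of vessel tone 3 of 22 tested rose and none fell (0.434% and 0.0601% of all genes did). Pde3a (chr6:141249269-141507448), a phosphodiesterase that breaks down cyclic AMP and is held back by cyclic GMP, was read at 3.36 and 3.13 CPM at E18.5 and at 181 and 121 CPM at P1. The P1 mice were far above the E18.5 mice, and the log2 change was 5.61 (SE 0.43, edgeR adjusted p 1.2e-05), called in all 22 alternatives. At 50000 reads a read of it was found in 3.8% and 2.4% of E18.5 cells and in 70.0% and 43.4% of P1 cells. Hpgd (chr8:56294585-56321043), which breaks down prostaglandins, was read at 25.4 and 17.5 CPM at E18.5 and at 808 and 285 CPM at P1. It had the same order in every mouse pair, and the change of 4.70 on the log2 scale (SE 0.56, edgeR adjusted p 0.000915) was likewise called in all 22 alternatives. Npr3, the clearance receptor of natriuretic peptides, was read at 10.6 and 8.30 CPM at E18.5 and at 74.2 and 93.8 CPM at P1 (log2 change 3.27, SE 0.47, edgeR adjusted p 0.00463), and without the E18.5 male the adjusted p was 0.0709.

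The rest of that list did not pass. Ramp2, the partner of the adrenomedullin receptor, had 1965 and 1921 CPM at E18.5 and 2574 and 5090 CPM at P1 (edgeR adjusted p 0.45). Calcrl, that receptor itself, had 629 and 884 against 1754 and 1510 CPM (edgeR adjusted p 0.37). Both lay higher in both P1 mice, while Ece1, which cuts endothelin to its active form, and Pde4b overlapped. Ece1 had 672 and 1601 CPM at E18.5 and 1124 and 2432 CPM at P1, and Pde4b 885 and 516 against 621 and 460 CPM. Across the 22 tested genes both P1 mice lay above both E18.5 mice for 9 and below for 2 (16% and 18.6% of all genes), with a median log2 change of 0.79. Ramp3, a gene of the Ramp2 family outside the list, was called higher and was picked after its values had been seen. It had 11.9 and 8.90 CPM at E18.5 and 42.7 and 91.4 CPM at P1 (edgeR adjusted p 0.0343), from 66 of 303 P1 cells.

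In the list of BMP and TGF-beta signalling 4 of 15 genes rose (0.434% of all genes did) and none fell, and its median log2 change was 1.40. Both P1 mice lay above both E18.5 mice for 10 of the 15 and below for 1 (16% and 18.6% of all genes). Tmem100 (chr11:90030348-90036508), a membrane protein induced by BMP signalling in endothelium, was read at 276 and 87.6 CPM at E18.5 and at 2745 and 2205 CPM at P1. It had a read in 97.2% and 100% of P1 cells, against 30.3% and 16.7% of E18.5 cells. The log2 change was 3.86 (SE 0.54, edgeR adjusted p 0.00347). Bmp6, a BMP ligand, was read at 1.07 and 4.04 CPM at E18.5 and at 126 and 23.3 CPM at P1. The P1 female was far above the P1 male, and both stood above E18.5 (log2 change 4.82, SE 0.79, edgeR adjusted p 0.0122). The adjusted p was 0.103 without the E18.5 female and 0.052 without the P1 female.

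Bmpr2, the BMP receptor whose human gene is mutated in heritable pulmonary arterial hypertension, was read at 132 and 109 CPM at E18.5 and at 577 and 286 CPM at P1. Its groups did not overlap (log2 change 1.88, SE 0.38, edgeR adjusted p 0.0431), but the call was lost in 15 of 22 alternatives, and leaving out any 1 of the 10 mice but the P1 male gave an adjusted p from 0.0634 to 0.282. Smad6, an inhibitor that BMP signalling induces, was read at 26.8 and 13.04 CPM at E18.5 and at 149 and 120 CPM at P1 (log2 change 2.84, SE 0.50, edgeR adjusted p 0.0198), with an adjusted p of 0.0553 without the E18.5 female and 0.201 without the E18.5 male. Of the members that were not called, the target Id1 had 167 and 349 CPM at E18.5 and 456 and 800 CPM at P1, and Id3 had 773 and 1341 against 1288 and 3222 CPM. The receptor Acvrl1 had 523 and 429 against 1075 and 803 CPM, and the coreceptor Eng 409 and 350 against 696 and 477 CPM. Of these 4 all but Id3 lay higher in both P1 mice, with edgeR adjusted p from 0.35 to 0.57.

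**Figure D2:**
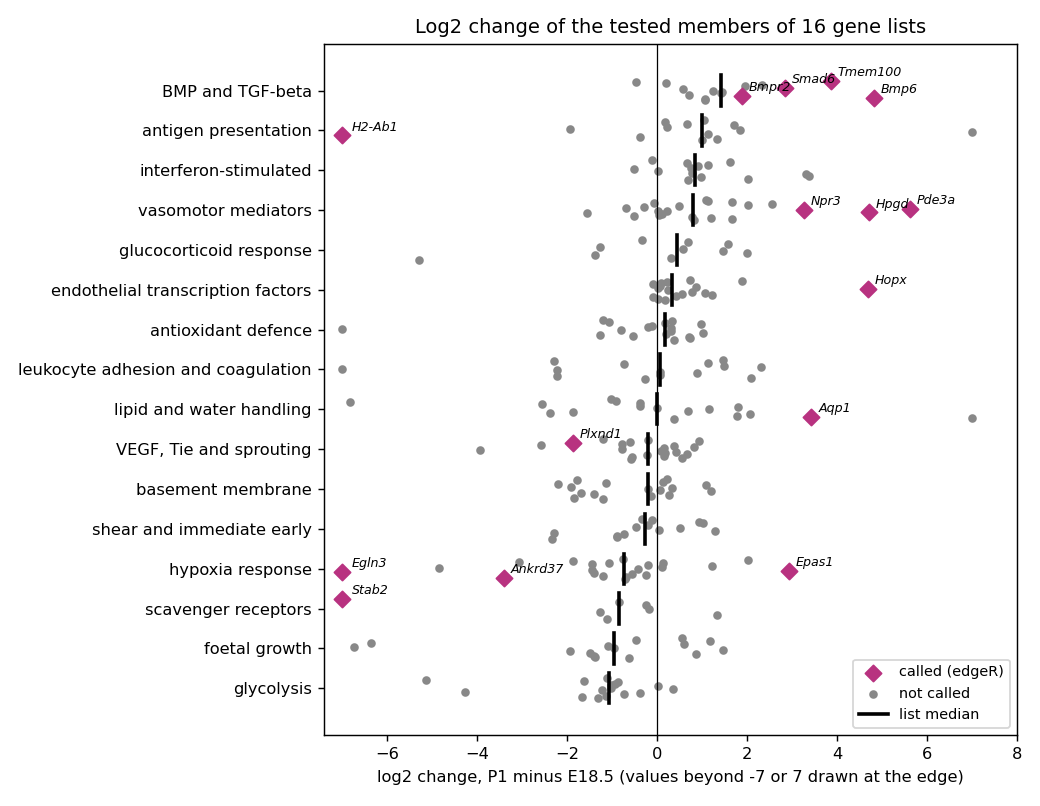
Log2 change of every tested member of 16 gene lists (P1 minus E18.5; 1 point per gene, magenta diamonds called by edgeR, black bars the list median, values beyond 7 in size drawn at the edge). The lists are ordered by their medians, from glycolysis at -1.07 to BMP and TGF-beta at 1.40.

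Water and lipid genes had 1 call of 17, which rose (0.434% of all genes did). Both P1 mice lay above both E18.5 mice for 6 of the 17 and below for 5 (16% and 18.6% of all genes). The list's median log2 change was 0.0012. Aqp1, the water channel of lung capillaries, was read at 83.9 and 66.8 CPM at E18.5 and at 1052 and 518 CPM at P1 (log2 change 3.43, SE 0.50, edgeR adjusted p 0.00497). Both P1 mice were far above both E18.5 mice, but the adjusted p was 0.0555 without the E18.5 female and 0.0871 without the E18.5 male. Cd36, a fatty acid carrier, had 298 and 227 CPM at E18.5 and 1145 and 577 CPM at P1 (edgeR adjusted p 0.11). Lpl, lipoprotein lipase, had 39.8 and 76.0 against 153 and 218 CPM (edgeR adjusted p 0.14), and Gpihbp1, its anchor on capillaries, overlapped. Acadl, an enzyme of fatty acid oxidation, had 139 and 118 against 172 and 142 CPM.

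Several secreted and surface proteins rose at P1. Sema3c (chr5:17574281-17730268), a semaphorin and a general capillary marker, was read at 14.3 and 3.71 CPM at E18.5 and at 401 and 189 CPM at P1 (log2 change 5.09, SE 0.60, edgeR adjusted p 0.000915). Cxcl12, a chemokine, was read at 32.6 and 15.8 CPM at E18.5 and at 274 and 185 CPM at P1 (3.32, SE 0.44, edgeR adjusted p 0.00224). When all cells of a mouse were taken, whatever their label, the change of Cxcl12 was 0.75 (edgeR adjusted p 0.71). Wfdc1, a secreted whey acidic protein domain factor, was read at 7.94 and 10.9 CPM at E18.5 and at 190 and 584 CPM at P1 (5.53, SE 0.60, edgeR adjusted p 0.000493), and was called in all 22 alternatives. Ecm1, an extracellular matrix protein, had 16.8 and 28.2 against 158 and 176 CPM (2.98, SE 0.42, edgeR adjusted p 0.00347; 0.056 without the E18.5 female).

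Ly6a (Sca-1), a surface protein of many endothelial and stem cells, was read at 252 and 163 CPM at E18.5 and at 1511 and 3291 CPM at P1. The change was 3.69 on the log2 scale (SE 0.53, edgeR adjusted p 0.00406; 0.0709 without the E18.5 male), and since near-identical Ly6 genes lie beside it, its reads may be shared. Emp2, a membrane protein in the list of Car4+ capillary markers, was read at 25.4 and 7.52 CPM at E18.5 and at 412 and 764 CPM at P1 (5.32, SE 0.71, edgeR adjusted p 0.0027). Over the 8 Car4+ markers both P1 mice lay above both E18.5 mice for 6 (16% of all genes), with 1 called, and Car4 itself had 132 and 48.5 CPM at E18.5 and 212 and 476 CPM at P1 (edgeR adjusted p 0.25). Among the Late-labelled cells of the P1 female Emp2 had 1774 CPM, and among its Early-labelled cells 304 CPM.

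The enzyme Fmo1, a flavin-containing monooxygenase, was read at 22.8 and 19.2 CPM at E18.5 and at 493 and 237 CPM at P1. Its log2 change was 4.16 (SE 0.44, edgeR adjusted p 0.000371), and it was called in all 22 alternatives. A read was found in 12.1% and 8.9% of E18.5 cells and in 77.8% and 63.9% of P1 cells. Tppp3, which promotes microtubule assembly, was read at 2.55 and 6.64 CPM at E18.5 and at 154 and 476 CPM at P1. Stmn2, a tubulin-binding stathmin, had 76.9 and 77.1 against 390 and 1142 CPM, and Mapt, the microtubule protein tau, 6.31 and 2.497 against 55.1 and 46.3 CPM. Their log2 changes were 6.25, 3.48 and 3.62 in that order, with edgeR adjusted p of 0.00224, 0.012 and 0.0121. Without the E18.5 male the adjusted p was 0.123 for Stmn2 and 0.128 for Mapt, and without the E18.5 female 0.119 for Stmn2.

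Nkd1, an inhibitor of Wnt signalling, had 38.9 and 43.9 CPM at E18.5 and 265 and 206 CPM at P1 (edgeR adjusted p 0.00906), with 0.105 without the E18.5 female and 0.0709 without the E18.5 male. Pllp, the membrane protein plasmolipin, had 1.31 and 0.832 against 23.8 and 21.7 CPM (edgeR adjusted p 0.00463; 0.0709 without the E18.5 male). Pxdc1 had 2.22 and 2.39 against 44.9 and 37.95 CPM (edgeR adjusted p 0.00085), and 5 cells gave 55.1% of its P1 reads. The smallest adjusted p of all belonged to a gene outside the naming rule, Hs3st1, a heparan sulfate sulfotransferase, which was singled out after its values were seen. It had no read in either E18.5 mouse and 40.8 and 56.7 CPM at P1 (edgeR adjusted p 1.82e-06), from 44 of 303 cells. With 3 reads taken as the most that no read over the E18.5 group allows, it was at least 3842-fold higher, a bound that covers counting error only.

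**Figure D3:**
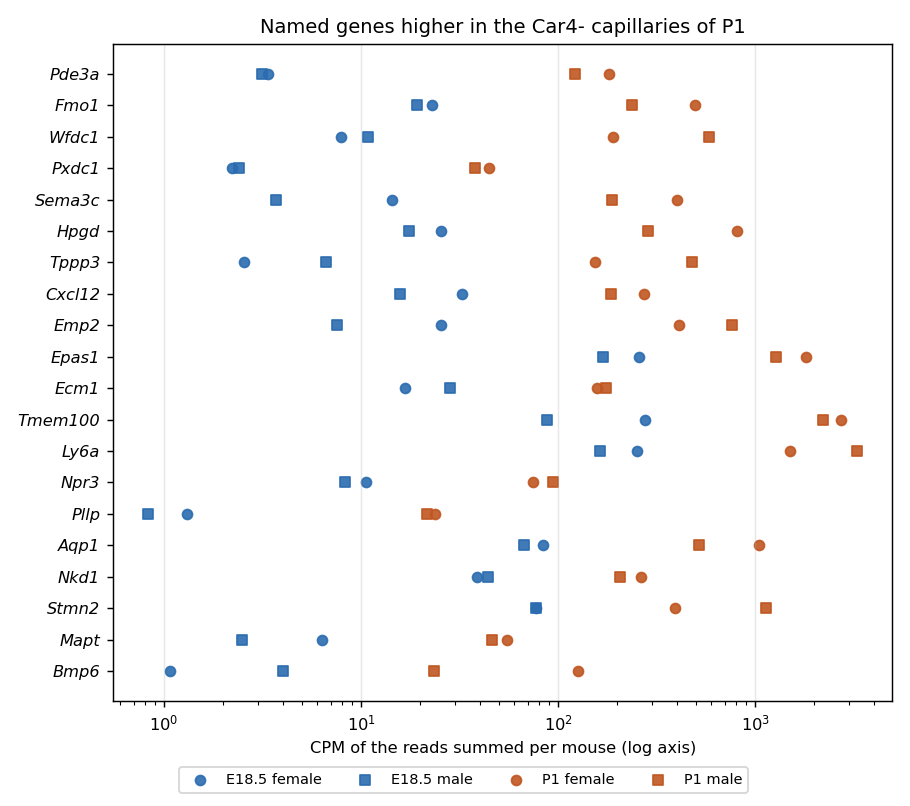
CPM of the 20 named genes that were higher at P1, on a log axis, 1 point per mouse (blue E18.5, orange P1, circles females, squares males), ordered by adjusted p from the top. Every orange point lies right of every blue point of its gene.

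Stab2 is a scavenger receptor of sinusoidal endothelium that takes up hyaluronan. It was read at 137 and 53.0 CPM at E18.5 and at 0.0243 and 0.0807 CPM at P1, in 34.8% and 20.8% of E18.5 cells and in none of 302 cells at P1 after thinning, while before thinning 7 of the 303 P1 cells held a read. The log2 change was -10.61 (SE 1.99, edgeR adjusted p 0.029), and leaving out any 1 of the 4 mice of E18.5 and P1 ended the call, with an adjusted p from 0.0636 to 0.178. Stab2 was the 1 edgeR call among the 7 tested scavenger receptors (0.0601% of all genes were called lower). Both P1 mice lay below both E18.5 mice for 5 of the 7 and above for 1 (18.6% and 16% of all genes). Lyve1, the related hyaluronan receptor, had 1029 and 953 CPM at E18.5 and 2056 and 2546 CPM at P1 (edgeR adjusted p 0.26), and DESeq2 called it higher. Stab1 had 263 and 223 against 176 and 84.0 CPM. Scarb1 (271 and 282 against 178 and 270 CPM) and Scarf1 (97.4 and 79.9 against 79.7 and 61.4 CPM) lay a little lower in both P1 mice.

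Plxnd1, a semaphorin receptor that guides vessel growth, fell from 243 and 202 CPM to 70.4 and 45.2 CPM. Its log2 change was -1.88 (SE 0.39, edgeR adjusted p 0.0462), a call kept in 4 of 22 alternatives and in none of the 10 that leave out 1 mouse (adjusted p 0.0604 to 0.319). It was the 1 call among 21 genes of VEGF, Tie and sprouting (0.0601% of all genes were called lower). For 9 of the 21 both P1 mice lay below and for 2 above (18.6% and 16% of all genes). Kdr, the main VEGF receptor, had 906 and 833 CPM at E18.5 and 587 and 374 CPM at P1 (edgeR adjusted p 0.51). The angiopoietin receptor Tek had 445 and 228 against 720 and 484 CPM, Tie1 670 and 720 against 577 and 562 CPM, and the coreceptor Nrp1 473 and 352 against 570 and 438 CPM. Cyr61, a matrix protein and YAP target, had 351 and 564 CPM at E18.5 and 121 and 47.5 CPM at P1 (log2 change -2.43, SE 0.51, edgeR adjusted p 0.0493), and 16 of 22 alternatives ended its call; leaving out 1 mouse gave an adjusted p from 0.0269 to 0.313.

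Lig1, which joins DNA strands in replication, and Cks1b, a partner of cyclin-dependent kinases, fell, and beside them markers of cell division had fewer reads at P1. Lig1 was read at 139 and 137 CPM at E18.5 and at 22.1 and 20.01 CPM at P1 (log2 change -2.63, SE 0.50, edgeR adjusted p 0.029). Its call was lost without any 1 of the 4 mice of E18.5 and P1 (adjusted p 0.0919 to 0.162) and without either P7 mouse (0.0602 and 0.0594). Cks1b had 108 and 195 against 30.2 and 30.7 CPM (-2.23, SE 0.46, edgeR adjusted p 0.0479), a call lost in 16 of 22 alternatives; leaving out 1 mouse gave an adjusted p from 0.0498 to 0.446. The repair gene Neil3 was called as well, with 6.86 and 9.41 CPM at E18.5 and no read at P1, and 5 cells gave 88.1% of its reads. None of the 12 proliferation markers passed by edgeR or by limma, and 3 passed by DESeq2. By edgeR 5 of the 12 had an unadjusted p under 0.05, beside 9.42% of all genes. The 12 markers summed to 371 and 414 CPM at E18.5 and to 39.4 and 84.9 CPM at P1, in cells not labelled as cycling. After thinning, 58.3% and 45.8% of the E18.5 cells and 18.9% and 16.4% of the P1 cells had a read of at least 1 of them. With only the 105 cells of E18.5 and 219 of P1 that had no read of them before thinning, a comparison added after seeing these values, 25 of 13991 genes were called, 16 of them among the 74. There the log2 changes were -2.49 for Lig1, -2.20 for Cks1b and -3.38 for Ankrd37, close to those above, with edgeR adjusted p of 0.434, 0.46 and 0.13. Tmem100 changed by 2.62 instead of 3.86 (edgeR adjusted p 0.239), while Egln3 (0.000771), Epas1 (0.00768), Pde3a (0.00114) and Aqp1 (0.0153) stayed called. Fmo1, Wfdc1, Sema3c, Hpgd, Cxcl12, Emp2, Nkd1, Stmn2 and Bmp6 stayed called as well. The calls of Tppp3 (edgeR adjusted p 0.247), Pxdc1, Ecm1, Ly6a, Npr3, Pllp and Mapt were lost. So were those of Smad6, Bmpr2, Hopx, Stab2, Plxnd1, Cyr61 and H2-Ab1.

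Of 13 genes listed for antigen presentation 1 was called, and it fell (0.0601% of all genes did). Yet both P1 mice lay above both E18.5 mice for 7 of 13 and below for 2 (16% and 18.6% of all genes). The call was the class II gene H2-Ab1, read at 7.01 and 1.68 CPM at E18.5 and at 0.0122 and 0 CPM at P1 (edgeR adjusted p 0.0191); 6 of 302 cells had a read, and 1 cell gave 73.3% of them, and its call was lost in 10 of 22 alternatives. The class I gene H2-K1 had 86.5 and 140 CPM at E18.5 and 418 and 352 CPM at P1 (edgeR adjusted p 0.0581), B2m 843 and 1191 against 1705 and 2069 CPM, and H2-D1 407 and 1160 against 1480 and 1746 CPM. Psmb8, a subunit of the immunoproteasome, overlapped with 147 and 207 against 133 and 244 CPM. Outside the list, 2 further class I genes were called, both higher at P1, and were picked here after their values had been seen. H2-T23 had 15.8 and 32.3 CPM at E18.5 and 144 and 119 CPM at P1 (edgeR adjusted p 0.0177). Before thinning 171 of the 303 P1 cells held a read of it. H2-Q5 had 0 and 0.0292 against 2.83 and 2.72 CPM (edgeR adjusted p 0.029), from 11 of 303 cells. Class I genes are near-identical copies of each other, so the split of their reads is uncertain. Of 14 interferon-stimulated genes edgeR called none, limma none and DESeq2 1. By edgeR 2 of the 14 had an unadjusted p under 0.05, beside 9.42% of all genes. Ly6e had 889 and 894 against 1845 and 1785 CPM and Ifitm3 1614 and 1793 against 2003 and 3346 CPM.

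Among 18 endothelial transcription factors both P1 mice lay above both E18.5 mice for 7 and below for none (16% and 18.6% of all genes), with a median log2 change of 0.32. There was 1 call, which rose, beside 0.434% of all genes. Hopx, a homeodomain protein without DNA binding, was the 1 call, with 1.45 and 1.43 CPM at E18.5 and 22.3 and 44.6 CPM at P1 (log2 change 4.68, SE 0.93, edgeR adjusted p 0.0394), and its call was lost in 8 of 22 alternatives, with an adjusted p of 0.21 without the E18.5 female, 0.245 without the E18.5 male and 0.22 without the P1 male. Foxf1, which the lung capillaries need, had 313 and 316 CPM at E18.5 and 1062 and 380 CPM at P1 (edgeR adjusted p 0.37), and Foxp1 584 and 508 against 1268 and 910 CPM (edgeR adjusted p 0.37). Sox17 had 406 and 288 against 343 and 332 CPM and Ets1 606 and 424 against 527 and 452 CPM. For both, the groups overlapped.

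By edgeR none of the foetal growth, basement membrane, shear and immediate early, glucocorticoid, antioxidant, and leukocyte adhesion and coagulation genes was called. Unadjusted p under 0.05 was reached by 6 of 15, 7 of 17, 4 of 14, 3 of 10, 2 of 18 and 4 of 14 of them in that order, beside 9.42% of all genes tested. DESeq2 called 3 basement membrane genes and 2 shear and immediate early genes, all lower at P1, and 2 leukocyte adhesion and coagulation genes, 1 in each direction; limma called 1 of the last list. Mest, an imprinted gene of foetal tissues, had 1741 and 1325 CPM at E18.5 and 886 and 494 CPM at P1, and Grb10, an imprinted growth inhibitor, 580 and 425 against 123 and 225 CPM (edgeR adjusted p 0.39). Peg3, also imprinted, ran the other way with 364 and 213 against 538 and 664 CPM, and Igf1r had 95.8 and 105 against 189 and 156 CPM. Fos had 2551 and 2395 CPM at E18.5 and 1541 and 1268 CPM at P1, while Dusp1, Ier2 and Ier3 overlapped. Sparc, Col4a1, Col4a2 and Itgb1 of the basement membrane list overlapped as well, with an edgeR adjusted p from 0.896 to 0.971. Sgk1, a glucocorticoid-induced kinase, had 92.3 and 151 CPM at E18.5, 620 CPM in the P1 female and 114 CPM in the P1 male. For Sod1, Txn1, Prdx1, Thbd, Icam2 and Anxa2 the groups overlapped, and Gstm1 had 381 and 480 against 504 and 1079 CPM (edgeR adjusted p 0.499).

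The 65 genes higher at P1 were also counted cell by cell, and they differed in how many cells held them: before thinning Nbl1 was read in 6, Mgp in 7 and Epas1 in 300 of the 303 P1 cells. At 50000 reads a cell of the E18.5 female had a read of a median of 6 of the 65 and a cell of the E18.5 male of 5, against 25 in the P1 female and 21 in the P1 male. Of 300 E18.5 cells, 40 had at least 10 of the genes, a count that lies at percentile 5 of the 302 P1 cells, and the highest E18.5 cell had 20. The genes were chosen on these cells, so the separation is a description. The 5 P1 cells with the embryonic label had 6 to 14 of the genes. The Late-labelled cells of the P1 female, with a median of 936 genes detected, had a median of 10, and the Early-labelled cells, with 3168 genes, had 26.

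**Figure D4:**
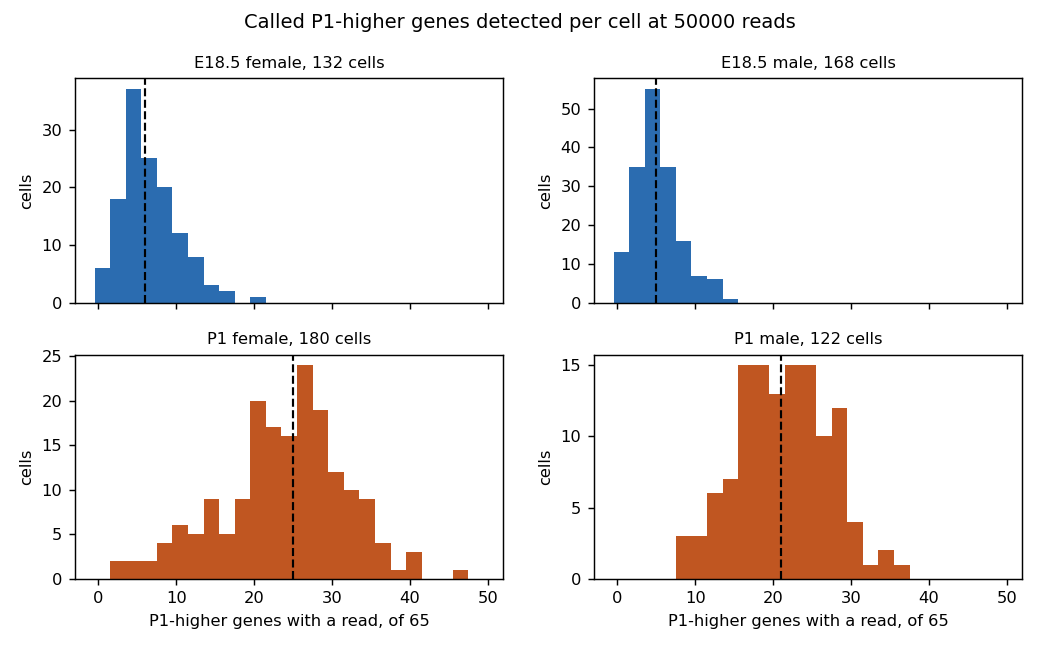
Number of the 65 P1-higher genes with a read in each cell after thinning to 50000 reads, 1 panel per mouse (vertical axis: cells; dashed line: median). The medians were 6 and 5 in the E18.5 mice and 25 and 21 in the P1 mice.

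The levels reached at P1 were then set beside those of the older Car4- capillaries, which served as the other groups of the fit and were not compared by a test. Egln3 stayed at 0.073 CPM or less in all 6 older mice, the hyperoxia pair included. Ankrd37 lay between 6.28 and 54.2 CPM in them, below both E18.5 mice. Epas1 ranged from 1353 to 2371 CPM, and Tmem100 from 3285 to 4170 CPM, both far above E18.5. Hpgd had 285 and 808 CPM at P1 but 2925 and 2928 CPM at P7 and 2950 and 4035 CPM at P21, so its P1 levels lay between those of E18.5 and of later ages. Ly6a had 451 and 674 CPM at P7, less than the 1511 and 3291 CPM of P1, and 2803 and 2639 CPM at P21. Cyr61 had 384 and 864 CPM at P21, above the 351 CPM of the E18.5 female in both mice.

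**Figure D5:**
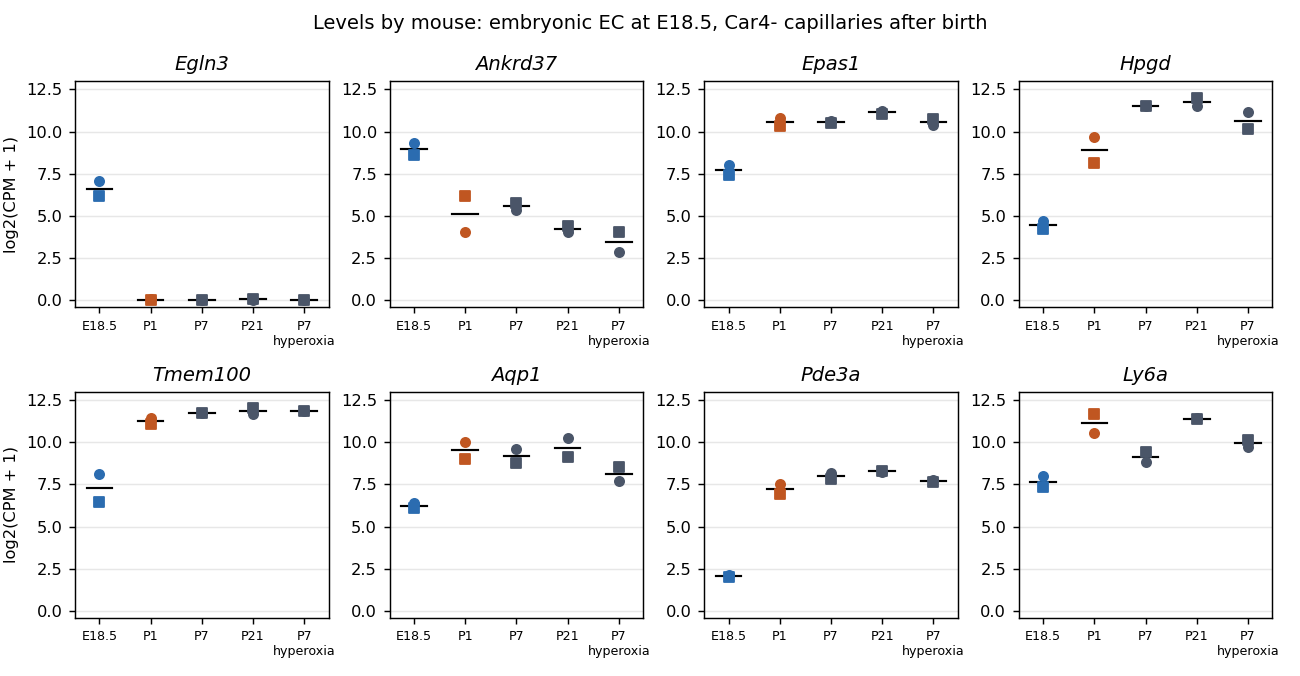
Levels of 8 of the genes in all 10 mice as log2(CPM + 1): embryonic EC at E18.5, Car4- capillaries at P1, P7, P21 and P7 after hyperoxia (circles females, squares males, bars the mean of the 2 mice). Egln3 is near 0 in every mouse after birth, while Epas1, Tmem100 and Pde3a stay high and Hpgd is higher at P7 and P21 than at P1.

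Whether the change was particular to these cells was tested against proliferative EC (206 cells at E18.5 and 22 at P1) and venous EC (22 and 67 cells) of the same 4 mice. The change in the capillary-type cells minus that in proliferative EC was called by edgeR for 4 of 14290 genes (0.028%), with the mouse as a term. Birc5 and Top2a, which act in mitosis, had 49.5 and 75.4 CPM and 68.5 and 71.4 CPM in the embryonic EC, and 0.693 and 3.55 CPM and 5.16 and 4.05 CPM in the P1 capillaries. In proliferative EC, a class labelled for division, Birc5 had 740 and 1497 CPM at E18.5 and 545 and 1897 CPM at P1, and Top2a 2431 and 1890 against 1632 and 1448 CPM. The difference of the changes was -5.25 (SE 0.36) for Birc5 and -3.49 (SE 0.28) for Top2a, both with an edgeR adjusted p of 0.0387. Both genes are among the 12 proliferation markers, and after thinning 100% of the proliferative EC of each mouse had a read of at least 1 marker. Since this class is labelled for division at both ages, the test cannot tell a different change with age from the choice of label. Leaving out 1 mouse moved the count of 4 to between 26 and 669, the latter without the P1 female. Neil3 and Gadd45g, a stress-induced growth arrest gene, were the other 2. Gadd45g had 330 and 265 CPM in the embryonic EC and 78.8 and 246 CPM in the P1 capillaries, and in proliferative EC 180 and 168 CPM at E18.5 and no read in 22 cells at P1.

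Of the 74 called genes Neil3 alone passed the test of a different change in proliferative EC. Egln3 had 97.8 and 37.4 CPM in proliferative EC at E18.5 and no read at P1, and Epas1 231 and 216 against 1203 and 723 CPM (edgeR adjusted p of the difference 0.998 and 0.96). Against venous EC, the count of calls was 0 of 13952 by edgeR (0%), 629 by DESeq2 and 0 by limma. Unadjusted, 719 genes had p under 0.05 in the edgeR fit, and the median difference over all genes was -0.66. In venous EC Egln3 had 234 and 25.9 CPM at E18.5 and still 17.5 CPM in each mouse at P1, where the Car4- capillaries had next to none (difference -9.85 on the log2 scale, edgeR adjusted p 0.743). Pde3a had 39.7 and 127 CPM in venous EC at E18.5 and 48.5 and 60.8 CPM at P1, a difference of 6.13 (edgeR adjusted p 0.634). Neither difference passed, so these values do not show that the change was particular to capillaries, and with 22 proliferative cells at P1 and 22 venous cells at E18.5 the tests were of low depth.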

How the data were processed

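The series holds plate-sorted single lung cells of 10 mice, each cell with the subtype, gate, a code such as DC23 and the mouse given in its labels. The deposited table holds read counts per gene and cell, made by the authors; per the submitters' processing notes STAR 2.5.2b, HTSeq 0.10 and the build GRCh38 were named, although the samples are mouse. Values were whole numbers, and coordinates given in the text come from GENCODE M21 and RefSeq (GRCm38.p6), not from the counts. Counts of member cells were summed per mouse. The test was edgeR 4.0.16 (R 4.3.3; quasi-likelihood F, TMM, filterByExpr) on 10 mice in 5 groups with 5 residual degrees of freedom, adjusted by Benjamini-Hochberg over 14967 genes and called under 0.05, with P1 minus E18.5 as direction. Differences between cell classes were fitted as interactions with the mouse as a term. These fits had fewer residual degrees of freedom than the main test, and fewer still with 1 mouse left out. The rule for named genes took called genes without overlap between groups, with a mean of 20 CPM or more and reads in 25% or more of the cells where they were higher, up to 20 higher and 10 lower by adjusted p, and from each list every called member and up to 4 others of highest mean level. Members, lists and rule were chosen with earlier results of these data known. Hif3a, Pdk1, Hs3st1, Neil3, Car4, Cldn18, Nbl1, Mgp, H2-T23, H2-Q5 and Ramp3 were named outside the rule. Alternatives were RLE scaling, no filter, the CD31 gate, thinned cells, other label sets, the 4 mice alone, a sex block, DESeq2 1.42.0, limma 3.58.1 (log2 of mean CPM plus 1) and each mouse left out; cells without proliferation reads were added after seeing the data. Sums held 82289335 to 136948689 reads in the 4 mice; reads without molecular identifiers are not independent molecules, so the floor of 3 reads covers counting error only.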

Additional observations from a re-analysis of the deposited data

Results flagged for a closer look

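For 4 genes the change from E18.5 to P1 differed between the capillary-type cells and proliferative EC of the same 4 mice by edgeR's interaction test. Of these, Birc5 and Top2a are markers of division and proliferative EC are labelled for division, so their result cannot be told apart from the choice of label. The difference (capillary change minus proliferative change, log2 scale) was -5.25 for Birc5 and -3.49 for Top2a, each lower at P1 in both capillary mice and read at 544.7 to 2431 CPM in every proliferative sum. It was -13.12 for Neil3 (SE 0.92, edgeR adjusted p 0.0468), which had no read in the P1 capillaries and 442 and 154 CPM in the proliferative EC of P1. It was 16.13 for Gadd45g (SE 0.97, edgeR adjusted p 0.0387), whose fitted size rests on no read in the 22 proliferative cells of P1. From the reads, the level there was at least 1061-fold below E18.5, with 3 reads as the most that no read allows. This bound covers counting error only and not the spread between cells. In the proliferative EC alone the change of Gadd45g had an edgeR adjusted p of 0.198.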

How the results depend on the processing

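In the birth comparison 74 genes were called; the count was 572 with DESeq2, 115 with cells thinned to equal depth (64 of them among the 74), 9 with the 4 mice of E18.5 and P1 alone, and 25 with cells that lacked proliferation reads. Leaving out 1 mouse gave 28 to 68 calls, the lowest without the E18.5 male, with 36 without the E18.5 female and 44 without the P7 male. With sex as a replicate block 60 genes were called, 55 of them among the 74; same-sex mice deviated together with correlations of -0.016 to 0.069, so the labels' sex pairs the mice in name only. The RLE scaling (73), no filter (90), the CD31 gate (56), Early cells alone (53), all capillary labels (110), all cells (80) and limma (57) stayed within 1.5 times. The difference from proliferative EC, 4 genes, became 1 with no replicate block, 349 with DESeq2 and 0 with limma, and 26 (without the E18.5 male), 28 (P1 male), 31 (E18.5 female) and 669 (P1 female) with 1 mouse left out, where the remaining mouse of that age was taken to vary like the others. The difference from venous EC, 0 genes, became 9 with no filter and 629 with DESeq2, and 10 (without the P1 male), 16 (P1 female), 298 (E18.5 male) and 633 (E18.5 female) with 1 mouse left out; with no replicate block it was 0. No called gene among those followed changed sign in any alternative run, while 20 of the 64 followed that were not called, Ets1, Sox17 and Higd1a among them, did so in at least 1. The class comparisons rest on 22 proliferative cells at P1 and 22 venous cells at E18.5.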
